A study of Homo sapiens with 15 samples.

Results

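HCT116 cells, a human colorectal carcinoma line labelled WT for genotype, were compared after 72 h with an extract of olive oil production waste from Sicily (SE) and after 72 h with pure hydroxytyrosol (HTyr), both at 0.0154 mg/mL. The comparison took the 3 SE and the 3 HTyr libraries, 6 of the 15 libraries of the series, and every gene that reached 1 TPM in 3 or more of all 15 libraries, which left 14899 of 60664. TPM give a transcript's abundance corrected for its length and relative to the whole library. Each value is read beside the 3 libraries of untreated HCT116 cells. The remaining 6 libraries come from cells given extracts from Apulia or Tuscany at the same dose and time, and they enter only the filter and the estimate of the spread between replicates. All cells were grown in RPMI medium with fetal bovine serum, glutamine and antibiotics, and all 5 groups come from the same line, so the results describe 1 tumor line. The dose is equal by mass: the share of hydroxytyrosol in the extract is not used here, so the comparison sets a mixture against 1 of the phenols of the olive at equal weight and not at equal amounts of that phenol.

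Hydroxytyrosol is a catechol found in olives, and extracts of olive waste hold it among other phenols. Plant phenols can act on the aryl hydrocarbon receptor, a ligand-activated transcription factor that turns on CYP1A1, and on KEAP1, the sensor that restrains the antioxidant factor NFE2L2 (NRF2). Cells answer damaged protein in the cytosol through HSF1, which induces heat shock proteins, and answer amino acid shortage or stress in the endoplasmic reticulum (ER) through the factor ATF4, which induces DDIT3, TRIB3 and ASNS. E2F factors, released from RB proteins in the G1 phase, switch on the genes of DNA replication, and SREBP2 switches on those of cholesterol synthesis when sterols are scarce.

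The HTyr libraries were not alike in composition, which touches every difference below. In HTyr replicates 1 and 2 the 8 genes of 5.8S ribosomal RNA, a short RNA without a poly(A) tail, held 5.41% and 4.40% of all TPM, against 0.301% in HTyr replicate 3, 0.0838%, 0.935% and 0.421% in SE replicates 1 to 3 and at most 1.05% in the other 9 libraries. The 8 genes have equal values in every library. Other RNAs without a poly(A) tail went the same way: RMRP, the RNA of an RNA-processing enzyme, stood at 213, 271 and 11.6 TPM in HTyr replicates 1 to 3 and at 14.4, 31.1 and 35.8 TPM in the SE libraries. Protein coding genes made up 89.7%, 91.5% and 95.8% of the TPM of HTyr replicates 1 to 3 and 95.5% to 96.5% with SE. Since TPM add up to the same total in every library, more short RNA leaves a smaller share for all other RNA together. The median log2 difference of all genes between SE and HTyr was 0.13 on the scale as deposited and 0.0051 once each library was divided by its median ratio to the other libraries, a shift of 0.13. The divisors were 0.946, 0.928 and 0.978 for HTyr replicates 1 to 3 and 1.03, 1.06 and 1.05 for SE replicates 1 to 3. How much of the shift goes back to short RNA was not tested. Because of the shift, genes are described first by whether they were called on both scales, and lists by 3 counts of calls. The 3 counts stand in the order as deposited, by median ratio, and by median ratio without HTyr replicates 1 and 2, where HTyr replicate 3 stands alone and is taken to vary like the other groups. Of all genes 4.97%, 2.17% and 1.3% were higher with SE in that order and 2.38%, 3.77% and 1.95% lower. A list with no count in a direction had no call in it in any of the 3. The lists are 67 hand-written groups of genes. For 15 of them, among them the p53, EGFR, TGF-beta, actin, glycolysis and mitochondrial genome lists, the median turned from above 0 as deposited to below 0 by median ratio without HTyr replicates 1 and 2.

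**Figure D1:**
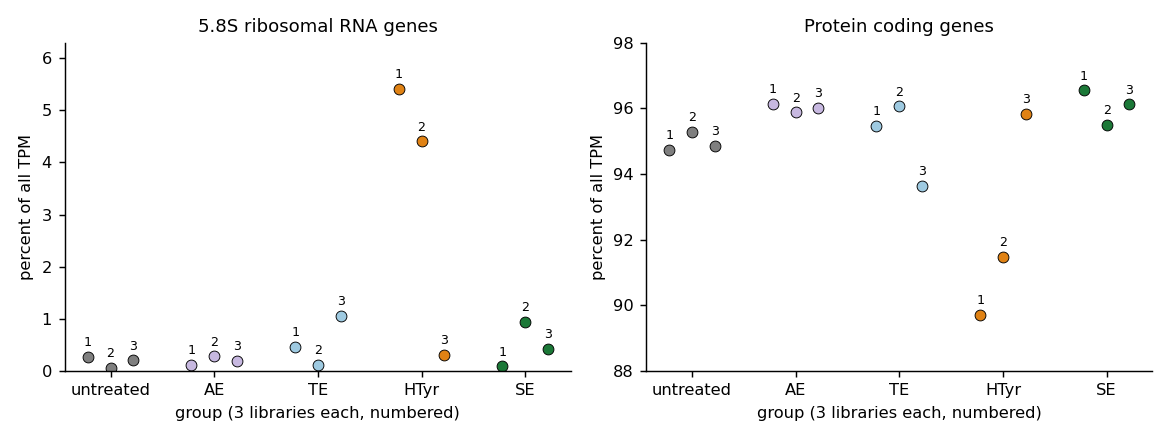
Share of all TPM, in percent, in each of the 15 libraries, 1 point per library with its replicate number. Left, 5.8S ribosomal RNA genes together with unnamed genes of identical values. Right, protein coding genes, on an axis that starts at 88%. HTyr replicates 1 and 2 hold 5.41% and 4.40% of their TPM in 5.8S genes, and every other library holds at most 1.05%.

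The identity of the cells was as labelled on epithelial markers and poor in colon markers. All 7 markers of epithelium reached 1 TPM, with sums of 2528 to 2691 TPM with SE, 3154 to 3484 with HTyr and 4641 to 4735 untreated. Of 5 colon markers CDX2 alone reached 1 TPM (sums of 4.86 to 7.05 TPM with SE), and VIL1, CDH17, LGALS4 and GPA33 stayed below it. Of the markers of leukocytes, fibroblasts, endothelium, neurons, muscle and erythroid cells 4 of 24 reached 1 TPM in any of these 9 libraries. TPM keep no depth, so the counting error behind each value is unknown. The bracketed codes in the sample titles are T1 to T3 for Sicily and S1 to S3 for Tuscany, against the initials of those regions, and the columns of the value table bear such codes. Columns S1 to S3 were taken as the Sicily extract, because the supplementary value table gives the same values under SE. If the title codes were right, the SE values here would be those of the Tuscany extract. The titles call the replicates biological without saying how the cultures were split, so a p-value measures the spread among these libraries, which may be technical.

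SE gave higher levels of far more transcripts than it lowered on the deposited scale, and this split turned on the median-ratio scale. Of 14899 genes 1096 were called (7.36%), which means a difference of over 1.5-fold in either direction with a Benjamini-Hochberg adjusted p below 0.05 in limma. Higher with SE were 741 (4.97%) and lower 355 (2.38%). On the median-ratio scale 884 were called (5.93%), 323 of them higher (2.17%) and 561 lower (3.77%). The 323 higher by median ratio and the 355 lower as deposited were called on both scales, and 566 of these 678 genes are protein coding. Without HTyr replicates 1 and 2, on the median-ratio scale, 163 of the 323 and 203 of the 355 were still called and all 678 kept their sign. As deposited, 578 genes were called without these libraries, 367 higher and 211 lower. The 3 SE libraries all lay above the 3 HTyr libraries in 31.6% of genes and all below them in 9.98%. Against untreated cells, with the same 3 untreated libraries on both sides, SE raised 17% of genes and lowered 11%, and HTyr raised 7.8% and lowered 8.45%. The median standard error of a log2 difference was 0.126.

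**Figure D2:**
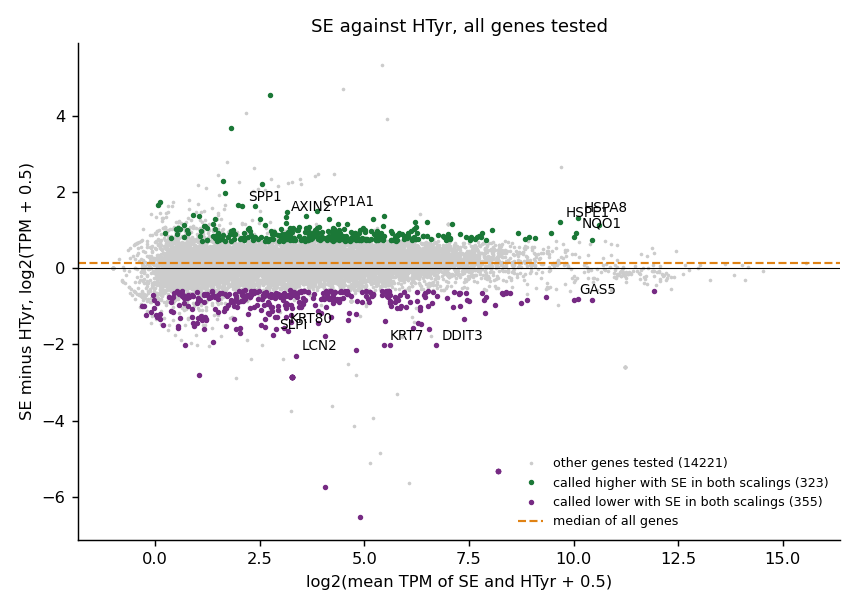
Log2 difference between SE and HTyr (vertical axis, log2(TPM + 0.5)) against the log2 mean level of both groups (horizontal axis) for all 14899 genes tested. Green and purple points are the 323 genes higher and the 355 lower with SE on both scales, and the dashed line is the median of all genes, 0.13.

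The largest differences were drops. The 12 genes named in each direction were picked among genes whose SE and HTyr libraries do not overlap. Their separation, here and below, thus follows from the choice. LCN2, an iron-binding lipocalin of innate defense (ENSG00000148346, chromosome 9, 128149071 to 128153453, all positions GENCODE 44 on GRCh38), stood at 2.66, 3.15 and 3.28 TPM in SE replicates 1 to 3, 15.8, 17.7 and 17.0 with HTyr and 59.2, 56.0 and 52.6 in untreated cells. The groups lay far apart, with the level under SE the lowest in each library, 5.55-fold below HTyr on means (log2 difference -2.30, standard error 0.097, adjusted p = 3.88e-08, limma). TNFRSF6B, a decoy receptor for FAS ligand (ENSG00000243509, chromosome 20, 63696652 to 63698684), read 13.0, 8.84 and 7.56 TPM with SE, 35.0, 59.8 and 41.8 with HTyr and 69.6, 91.9 and 101 untreated, again in 3 separate ranges (log2 difference -2.16, standard error 0.25, adjusted p = 3.66e-05). UPP1, the enzyme that splits uridine (ENSG00000183696, chromosome 7, 48088628 to 48108736), read 17.6, 17.9 and 20.9 TPM with SE and 75.4, 90.3 and 67.2 with HTyr, from 109.5, 103.9 and 120.3 untreated (log2 difference -2.01, standard error 0.11, adjusted p = 1.38e-07). RBCK1, a subunit of the linear ubiquitin ligase, read 45.7, 47.4 and 44.5 TPM with SE, 133, 148 and 137 with HTyr and 241, 256 and 258 untreated (log2 difference -1.59). The other large drops were in KRT7 and KRT80, keratins, in SLPI, a protease inhibitor of secretions, in DDIT3, and in LEMD1 (-1.77), IL20RB (-1.65), a receptor chain for cytokines of the IL-20 group, LURAP1L (-1.59) and ISG20 (-1.61), an interferon-induced exonuclease. Of these 12 genes 11 were also called without HTyr replicates 1 and 2 on the median-ratio scale. ISG20 was the exception, and its SE libraries were spread over 1.14, 0.350 and 3.53 TPM.

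The largest gains were smaller and came in part from low transcripts. SPP1, the secreted phosphoprotein osteopontin (ENSG00000118785, chromosome 4, 87975667 to 87983532), read 7.01, 5.8 and 4.73 TPM with SE, 1.05, 2.86 and 1.12 with HTyr and 0, 0.480 and 0.430 untreated (log2 difference 1.62, standard error 0.36, adjusted p = 0.00446, limma). AXIN2, a scaffold of the beta-catenin destruction complex and a common WNT target (ENSG00000168646, chromosome 17, 65528563 to 65561648), had 12.4, 11.5 and 12.1 TPM with SE, 4.13, 4.44 and 4.73 with HTyr and 2.52, 3.72 and 2.95 untreated (log2 difference 1.34, standard error 0.11, adjusted p = 3.34e-06). Its SE values lay close together and 2.71-fold above HTyr on means. FAM111B, a protease gene, read 12.7, 13.1 and 11.7 TPM with SE and 5.03, 3.21 and 4.52 with HTyr (log2 difference 1.47). SLC25A21, a mitochondrial carrier of oxoadipate, was highest in difference at 1.66, with SE libraries from 3.05 to 7.27 TPM against 0.800 to 1.99 with HTyr (standard error 0.40). The others were CYP1A1, HSPA8, HSPE1, ACAT2 and BRCA2, described with their groups, CCDC150 (1.28), CEP152 (1.37), a centriole protein, and ENSG00000259316 (1.36), a gene without a symbol. Of these 12 genes 8 were called without HTyr replicates 1 and 2 on the median-ratio scale, and SLC25A21, CEP152, ENSG00000259316 and BRCA2 were not.

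**Figure D3:**
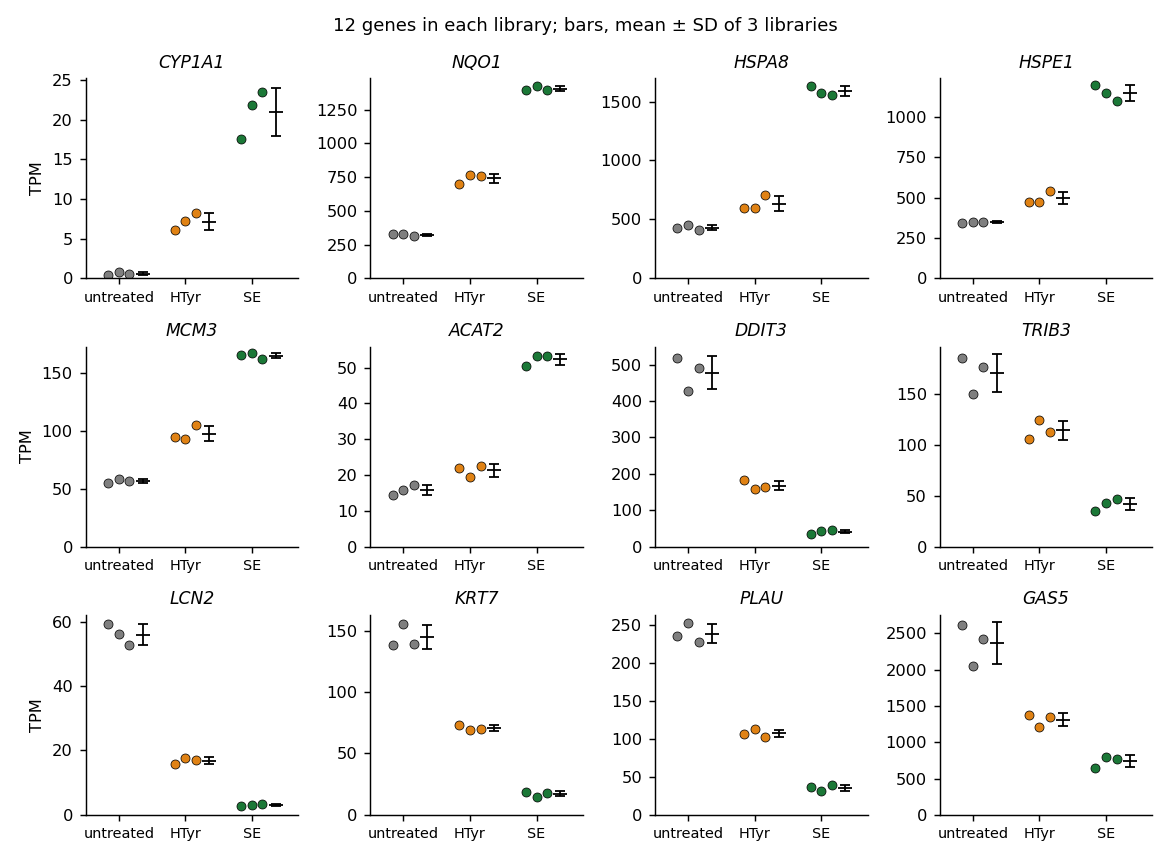
TPM of 12 genes in each of the 3 untreated, 3 HTyr and 3 SE libraries (points, in replicate order; each panel has its own axis, starting at 0), with the mean ± SD of the 3 libraries as bars. In all 12 panels the SE points lie apart from the HTyr points, above them for the first 6 genes and below them for the last 6. The genes were chosen for lack of overlap or a small adjusted p, so this separation follows from the choice. Of all genes the SE libraries lay all above the HTyr libraries in 31.6% and all below in 9.98%.

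CYP1A1, CYP1B1 and NQO1, oxidoreductases of the aryl hydrocarbon receptor battery, were higher with SE than with HTyr on both scales, and the receptor with its partners was not called. CYP1A1, the cytochrome P450 that oxidises planar aromatic compounds (ENSG00000140465, chromosome 15, 74719542 to 74725536), read 17.6, 21.8 and 23.5 TPM with SE, 6.06, 7.18 and 8.2 with HTyr and 0.390, 0.810 and 0.60 untreated, 3 ranges that do not meet (log2 difference 1.49, standard error 0.17, adjusted p = 3.57e-05, limma). CYP1B1, a related oxidase, followed at 3.22, 2.96 and 3.19 TPM against 1.42, 1.23 and 1.23 with HTyr (log2 difference 1.02), and NQO1, the quinone reductase that this receptor and NFE2L2 share (ENSG00000181019, chromosome 16, 69706996 to 69726668), at 1396, 1425 and 1396 against 699.6, 766 and 757 TPM (log2 difference 0.93, standard error 0.047, adjusted p = 1.10e-07). TIPARP, an ADP-ribosyltransferase that restrains the receptor, was called on the deposited scale alone (0.63). AHRR, the repressor of the receptor, read 11.6, 13.2 and 11.6 TPM with SE and 6.39, 6.27 and 6.66 with HTyr, which do not overlap, yet it missed the call (0.86, adjusted p = 0.0993). The machinery was not called either: AHR, the receptor, differed by 0.40 and its partner ARNT by -0.15 on the log2 scale. LTB4R2 (0.40), ALDH3A1 (0.33) and CYP2S1 (-0.29) were not called, and SLC7A5, an amino acid carrier, was lower with SE on the median-ratio scale only (-0.57 as deposited). Of 13 members tested 4, 3 and 3 were higher and 0, 1 and 1 lower, with a median of 0.40 beside 0.13 for all genes. CYP1A2, UGT1A6 and NEDD9 were below the filter.

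The promoter of CYP1A1 is shown because its gene had the largest gain of the receptor's battery. The sequence is RefSeq's for GRCh38.p14 (chr15:74725479-74725778, minus strand), 300 bases across the transcription start, 5′ to 3′ along the gene, with capitals for GCGTG or its reverse complement, the core that the receptor binds:
CYP1A1: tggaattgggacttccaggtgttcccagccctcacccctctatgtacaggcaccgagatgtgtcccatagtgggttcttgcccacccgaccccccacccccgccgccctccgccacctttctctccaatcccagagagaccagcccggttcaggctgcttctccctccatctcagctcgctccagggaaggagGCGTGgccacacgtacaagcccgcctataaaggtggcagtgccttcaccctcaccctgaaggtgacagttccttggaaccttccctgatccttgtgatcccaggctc
The core occurs once in this window. It is common: of 10543 promoters of tested genes 51.3% hold it on either strand, and 7 of 10 members of the list with a RefSeq promoter do (70.0%), among them NQO1, TIPARP, AHRR and SLC7A5. A match of letters is a description of the window only.

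Of 30 antioxidant genes under NFE2L2, 12, 5 and 4 were higher with SE than with HTyr (4.97%, 2.17% and 1.3% of all genes) and 0, 1 and 0 lower (2.38%, 3.77% and 1.95% of all genes). The median log2 difference was 0.41, beside 0.13 for all genes. PIR, an iron-binding nuclear protein, read 39.4, 45.5 and 43.0 TPM with SE, 20.4, 21.5 and 21.4 with HTyr and 15.9, 13.2 and 15.6 untreated (log2 difference 0.99, standard error 0.089, adjusted p = 5.42e-06, limma). ABCC2, the pump that exports conjugated phenols and bilirubin, read 62.0, 64.5 and 70.6 TPM with SE and 33.9, 28.9 and 37.4 with HTyr (log2 difference 0.97, standard error 0.11, adjusted p = 4.28e-05). For both genes every SE library lay above every HTyr library, and the HTyr mean lay above the untreated mean (25.5 TPM for ABCC2). The subunits of the enzyme that starts glutathione synthesis differed by 0.73 (GCLM, the modifier, both scales) and 0.64 (GCLC, the catalytic subunit, deposited scale only). HMOX1, which opens the heme ring, had 38.2 ± 2.45 TPM (mean ± SD, n = 3 here and below) with SE and 24.6 ± 2.52 with HTyr (log2 difference 0.63, deposited scale only), and KEAP1 (0.59), the glutathione reductase GSR (0.67) and the ferritin chain FTL (0.60) were called on that scale alone as well. The core targets TXNRD1 (0.36), SRXN1 (0.09), SLC7A11 (0.15), MAFG (0.10) and SQSTM1 (0.18) were not called, nor was NFE2L2 itself (0.44). SRXN1 and SQSTM1 stood below their untreated level with both treatments on means, at 99.4 and 93.5 TPM against 131, and at 267 and 237 against 338. The battery thus moved unevenly: OSGIN1 (0.58), EPHX1 (0.38), TXN (0.36), TKT (0.30), TALDO1 (0.26), UGDH (0.45), FTH1 (0.08) and CBR3 (0.22) lay above 0 without a call and BLVRB (-0.41) below it.

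Around this core, the pentose phosphate and NADPH-making enzymes made 3, 1 and 1 calls upward and 0, 1 and 1 downward of 14: PGD read 187, 154 and 163 TPM with SE and 87.1, 98.7 and 107 with HTyr (log2 difference 0.78), and ME1, the malic enzyme, differed by 0.60. H6PD, a dehydrogenase of the ER, was lower on the median-ratio scale (-0.54 as deposited). Of 36 glutathione, peroxiredoxin and thioredoxin enzymes 5, 2 and 0 were higher and 1, 1 and 1 lower. PRDX1, an abundant peroxidase, had 1732 ± 135 TPM with SE and 1040.2 ± 53.4 with HTyr (0.73), and the member that went against it was GPX1, a selenium-dependent peroxidase, at 93.6, 117 and 120.2 TPM with SE and 142, 206 and 169 with HTyr (log2 difference -0.63, standard error 0.13, adjusted p = 0.00242). Of 19 tested enzymes and pumps that conjugate and export phenols 2, 2 and 1 were higher and 0, 1 and 0 lower. The genes called higher as deposited were ABCC2 and NAT1, an N-acetyltransferase (3.46, 4.09 and 3.88 TPM with SE against 1.99, 1.67 and 2.16 with HTyr, log2 difference 0.82). The sulfotransferases SULT1A1, SULT1A2 and SULT1A3, near-identical genes whose reads may be split between them, differed by 0.02, -0.24 and 0.27, none of them called. ABCC3, a pump of the other cell face, was lower on the median-ratio scale (-0.57). Of 11 aldo-keto and carbonyl reductases 1, 0 and 0 were higher, DHRS2 (0.62) as deposited.

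Metallothioneins bind zinc and copper, and their list also holds other genes of the zinc response. Of its 7 tested members 2 as deposited and 3 by median ratio were lower with SE than with HTyr. MT2A (ENSG00000125148, chromosome 16, 56608584 to 56609497) read 826, 1034 and 1149 TPM with SE, 1659, 1870.5 and 1845 with HTyr and 1229, 915 and 1338 untreated (log2 difference -0.85, standard error 0.17, adjusted p = 0.00231, limma). MT1E read 235, 272 and 283 against 390.1, 392 and 426 TPM (log2 difference -0.62). For both, the untreated mean lay between the means of the treatments and close to that of SE for MT1E (265 TPM). MT1X was lower on the median-ratio scale alone (-0.49 as deposited). TFRC, the transferrin receptor that takes up iron, was higher with SE at 219.9, 229 and 216 TPM against 122.7, 119 and 135 with HTyr (log2 difference 0.82, standard error 0.063, adjusted p = 1.47e-06). ACO1, whose apo form senses iron, had a log2 difference of 0.51 without a call. The iron list made 3, 1 and 1 calls upward and 1, 1 and 1 downward of 18, with LCN2 the downward call as deposited.

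Of 37 heat shock proteins and HSF1 targets tested 16, 12 and 10 were higher with SE than with HTyr (4.97%, 2.17% and 1.3% of all genes), and none was lower. The median was 0.53 beside 0.13, and 30 of 37 lay above 0.13. HSPA8, the constitutive HSP70 (ENSG00000109971, chromosome 11, 123057489 to 123063230), read 1635, 1571 and 1555 TPM with SE, 599, 593 and 710.0 with HTyr and 427, 450.4 and 412 untreated, so the lowest SE library lay far above the highest HTyr library (log2 difference 1.33, standard error 0.077, adjusted p = 1.60e-07, limma). HSPE1, the lid of the mitochondrial chaperonin (ENSG00000115541, chromosome 2, 197500140 to 197503449), read 1195, 1145 and 1098 TPM with SE, 474, 474 and 539.5 with HTyr and 345, 351 and 351 untreated (log2 difference 1.21, standard error 0.066, adjusted p = 1.14e-07), and its partner HSPD1, from the same bidirectional promoter, had 1321 ± 70.4 TPM against 757 ± 51.2 (log2 difference 0.80). HSP90AA1, the inducible HSP90, read 2089, 2248 and 2106 TPM with SE against 924, 965 and 1045 with HTyr (log2 difference 1.14, standard error 0.062, adjusted p = 1.14e-07), while HSP90AB1, the constitutive form, differed by 0.71 and was called on the deposited scale alone.

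Several co-chaperones and partners of these machines were called and others were not. HSPH1, a nucleotide exchange factor of HSP70, differed by 1.205, CHORDC1, a partner of HSP90, by 1.21, AHSA1, which stimulates the HSP90 ATPase, by 0.91, HSPA14 by 0.93, HSPA4L by 0.79 and the J-proteins DNAJA1 and DNAJB4 by 0.83 and 0.82, all on both scales. The small heat shock protein HSPB8 was higher than with HTyr (3.84, 3.19 and 5.48 against 1.73, 2.66 and 2.23 TPM, log2 difference 0.77), with the untreated mean of 5.21 TPM above both. HSPA4 (0.65), FKBP4 (0.61) and STIP1 (0.59) were called as deposited only. Several stress-inducible members were not called, among them HSPB1 (0.55, beside 0.13 for all genes). HSPA1A and HSPA1B, near-identical copies of the inducible HSP70 whose reads may be split, differed by 0.57 (adjusted p = 0.0775) and 0.44 (adjusted p = 0.0222, under the fold threshold), DNAJB1 by 0.20, BAG3 by 0.11 and the factor HSF1 itself by -0.13. HSPA6, HSPA1L and CRYAB were below the filter. Mitochondrial HSPA9 (-0.11) and TRAP1 (0.14) and the J-proteins DNAJA3 (-0.11), DNAJB2 (-0.36) and DNAJB6 (-0.02) were not called. Of 14 subunits of the chaperonin TRiC and prefoldin 2, 0 and 0 were higher, among them CCT8 (0.70), and 1, 1 and 1 lower. PFDN2 was the lower one on both scales at 166, 185 and 184 TPM with SE against 313, 308 and 291 with HTyr (log2 difference -0.77, standard error 0.052, adjusted p = 6.60e-07).

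The promoters of HSPA8 and CHORDC1 are shown because the letters of the heat shock element lie in them more than once. Capitals mark GAANNTTC or TTCNNGAA, the inverted repeats bound by HSF1, which can overlap each other, in RefSeq windows of GRCh38.p14 for HSPA8 (chr11:123062087-123062386, minus strand) and CHORDC1 (chr11:90223000-90223299, minus strand), 5′ to 3′ along the gene:
HSPA8: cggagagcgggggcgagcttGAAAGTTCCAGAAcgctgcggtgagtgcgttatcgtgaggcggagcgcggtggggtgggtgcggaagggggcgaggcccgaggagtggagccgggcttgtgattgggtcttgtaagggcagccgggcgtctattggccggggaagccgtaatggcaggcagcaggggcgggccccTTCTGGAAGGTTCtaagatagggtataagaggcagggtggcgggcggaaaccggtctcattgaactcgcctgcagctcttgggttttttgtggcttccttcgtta
CHORDC1: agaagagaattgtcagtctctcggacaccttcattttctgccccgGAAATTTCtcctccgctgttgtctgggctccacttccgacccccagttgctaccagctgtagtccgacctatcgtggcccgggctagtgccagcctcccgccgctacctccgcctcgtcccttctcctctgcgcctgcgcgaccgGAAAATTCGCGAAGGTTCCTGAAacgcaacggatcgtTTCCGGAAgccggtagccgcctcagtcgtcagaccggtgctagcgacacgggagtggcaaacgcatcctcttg
HSPA8 holds 4 matches and CHORDC1 6. Such letters were in 10 of 33 members of the list with a RefSeq promoter (30.3%) and in 9.68% of 10543 promoters, and in 4 of the 11 members with a promoter that were called on both scales, the others being DNAJA1 and HSPB8.

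Of 25 genes in the ER chaperone list, which also holds the mitochondrial GRPEL1, 1 was called as deposited and 1 by median ratio, each upward. As deposited it was CALR, the calcium-binding calreticulin, at 638, 605 and 620.0 TPM with SE against 320.2, 358 and 381 with HTyr (log2 difference 0.82, standard error 0.067, adjusted p = 2.40e-06, limma). CALR thus stood above the untreated libraries (536, 469.8 and 463 TPM) with SE and below them with HTyr. HSP90B1 (0.50), PDIA4 (0.47), PDIA3 (0.38) and CANX (0.37) lay above 0 without a call. HSPA5, the chief chaperone of the compartment, had the opposite sign: it read 405, 414 and 396 TPM with SE and 555, 528 and 546 with HTyr, separate ranges that differ by less than the fold threshold (log2 difference -0.42, adjusted p = 3.29e-04), from 1939.9, 1599.8 and 1699 untreated. HYOU1 (-0.27) and DNAJB9 (-0.33) had its sign. Of the 21 stress sensors and degradation genes 2, 2 and 3 were lower and none was higher. PPP1R15A, the phosphatase subunit that ends the block on translation, read 27.2, 21.9 and 24.4 TPM with SE, 65.6, 68.3 and 59.8 with HTyr and 115, 142 and 129 untreated (log2 difference -1.38, standard error 0.088, adjusted p = 3.46e-07), and the sensor ERN1 (IRE1) differed by -0.67.

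Of 32 ATF4 targets tested 9, 15 and 14 were lower with SE than with HTyr (2.38%, 3.77% and 1.95% of all genes) and none was called higher, and the median was -0.43 beside 0.13. DDIT3, the factor CHOP that promotes death under ER stress (ENSG00000175197, chromosome 12, 57516588 to 57521737), read 35.8, 42.1 and 45.8 TPM with SE, 182, 157 and 164 with HTyr and 518, 427 and 489.5 untreated (log2 difference -2.02, standard error 0.11, adjusted p = 1.14e-07, limma). TRIB3, a pseudokinase it induces, read 35.4, 42.5 and 46.8 TPM with SE, 105, 124 and 112 with HTyr and 185, 149.8 and 177 untreated (log2 difference -1.45, standard error 0.10, adjusted p = 8.08e-07). For both, each group filled a range of its own, in the order untreated, HTyr, SE. ASNS, asparagine synthetase (ENSG00000070669, chromosome 7, 97851677 to 97872542), differed in that its HTyr libraries lay within the range of the untreated ones: 180.1, 191 and 199.9 TPM with SE, 365, 371 and 376 with HTyr, 427, 358 and 396 untreated (log2 difference -0.96, standard error 0.063, adjusted p = 4.55e-07). DDIT4, an inhibitor of mTORC1, had 104.5 ± 9.58 TPM with SE, 209.5 ± 9.30 with HTyr and 233 ± 15.8 untreated (-1.004), and SESN2, another such inhibitor, differed by -0.82. Aminoacyl-tRNA synthetases of the cytosol, several of which ATF4 induces, made 2, 4 and 4 calls downward of 20 and none upward: SARS1 read 130.3, 122.8 and 131 TPM with SE against 233, 234 and 236 with HTyr (log2 difference -0.87, standard error 0.045, adjusted p = 1.14e-07), AARS1 134, 121 and 122 against 226, 219 and 225 TPM (-0.83), and CARS1 and WARS1 were lower on the median-ratio scale alone (-0.56 and -0.58 as deposited). Their mitochondrial counterparts made 1, 0 and 0 calls of 17, upward.

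The promoter of ASNS is shown because it holds the letters of a composite element bound by ATF4 with a C/EBP factor. Capitals mark TGATGNAA or its reverse complement in the RefSeq window of GRCh38.p14 (chr7:97872359-97872658, minus strand), 5′ to 3′ along the gene:
ASNS: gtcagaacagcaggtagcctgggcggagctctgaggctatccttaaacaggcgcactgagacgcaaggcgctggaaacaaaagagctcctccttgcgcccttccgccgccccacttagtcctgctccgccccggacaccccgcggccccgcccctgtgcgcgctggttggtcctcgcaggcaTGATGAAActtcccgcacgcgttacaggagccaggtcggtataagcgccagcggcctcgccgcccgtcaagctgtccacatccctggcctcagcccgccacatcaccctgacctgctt
The window holds 1 match. The letters were in 6 of 27 list members with a RefSeq promoter (22.2%) and in 1.66% of 10543 promoters. DDIT3 and TRIB3 hold none in this window.

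Genes under p53 made 1, 1 and 0 calls upward and 2, 4 and 3 downward of 30 and showed no common direction (median 0.14, beside 0.13). MDM2, the ligase that degrades p53, was higher at 106, 100.3 and 78.5 TPM with SE against 51.3, 48.9 and 67.4 with HTyr (log2 difference 0.76, standard error 0.15, adjusted p = 0.00221, limma). GADD45A, a stress gene, was lower at 49.0, 44.3 and 49.6 against 88.8, 91.5 and 85.7 TPM (log2 difference -0.89, standard error 0.065, adjusted p = 8.98e-07). The libraries of SE and HTyr did not overlap for either gene. TNFRSF10B, a receptor for TRAIL, and GDF15, a secreted stress cytokine, were lower on the median-ratio scale only (-0.57 and -0.52 as deposited). Of 17 BCL2 family genes 1, 1 and 1 were lower, as deposited BCL2L1, which guards against apoptosis (122 ± 5.90 TPM with SE, 191 ± 2.95 with HTyr, log2 difference -0.65), and of 21 death receptors and caspases 2, 2 and 0 were higher and 0, 1 and 1 lower, among the higher CASP6 (0.86).

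Replication genes had the highest list median as deposited. Of 60 members 46, 33 and 22 were higher with SE than with HTyr (4.97%, 2.17% and 1.3% of all genes) and none was lower, and all 60 lay above the median of all genes (list median 0.74 beside 0.13). In bulk RNA, more cells in S phase and more of these transcripts per cell cannot be told apart. RFC4, a subunit of the clamp loader, read 93.2, 102 and 103.6 TPM with SE, 52.6, 49.8 and 54.3 with HTyr and 42.7, 44.8 and 44.9 untreated (log2 difference 0.93, standard error 0.055, adjusted p = 2.03e-07, limma). ORC1, the largest origin recognition subunit, read 20.4, 19.8 and 21.1 TPM with SE, 10, 10.4 and 10.5 with HTyr and 4.84, 4.75 and 4.51 untreated (log2 difference 0.96, standard error 0.069, adjusted p = 8.52e-07). For both, the groups filled 3 separate ranges, with SE the highest. RFC5 differed by 0.86, and MCM3, a subunit of the replicative helicase (ENSG00000112118, chromosome 6, 52264014 to 52284881), by 0.76, from 94.5, 93.2 and 105 TPM with HTyr to 165, 167 and 162 with SE (adjusted p = 8.98e-07). MCM3 was not called without HTyr replicates 1 and 2, where the other 3 were.

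The MCM3 promoter is shown because E2F letters lie in it. Capitals mark TTTGGCGC, TTTCCCGC, TTTGCCGC or TTTCGCGC or their reverse complements in the RefSeq window of GRCh38.p14 (chr6:52284693-52284992, minus strand), 5′ to 3′ along the gene:
MCM3: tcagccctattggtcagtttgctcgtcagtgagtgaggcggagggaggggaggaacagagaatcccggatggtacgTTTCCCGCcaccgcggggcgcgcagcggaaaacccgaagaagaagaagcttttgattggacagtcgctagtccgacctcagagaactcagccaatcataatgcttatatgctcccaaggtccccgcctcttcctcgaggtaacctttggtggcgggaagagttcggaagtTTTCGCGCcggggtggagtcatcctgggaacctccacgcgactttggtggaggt
The window holds 2 matches. Such letters were in 23 of 52 members of the replication list with a RefSeq promoter (44.2%) and in 5.48% of 10543 promoters, and in 13 of the 28 that were called on both scales. ORC1, RFC4 and RFC5 hold none in this window.

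Of 25 deoxynucleotide synthesis enzymes 8, 3 and 3 were higher and none was lower: RRM1, the large subunit of ribonucleotide reductase, read 108, 105 and 113 TPM with SE and 58.9, 57.96 and 64.0 with HTyr (log2 difference 0.85, standard error 0.061, adjusted p = 8.98e-07, limma), TYMS, thymidylate synthase, differed by 0.81, and RRM2 (0.67) and PAICS (0.60), a purine enzyme, were called as deposited only. Homologous recombination, Fanconi and checkpoint genes made 17, 10 and 4 calls upward of 35 and none downward, with a median of 0.60. BRCA2 read 7.21, 5.82 and 9.79 TPM with SE against 2.60, 2.39 and 3.30 with HTyr (log2 difference 1.29, standard error 0.29, adjusted p = 0.00434), a low transcript with a wide error. BRIP1, a helicase that partners BRCA1 (1.06), and RAD54B, which remodels recombination filaments (1.06), were called in all 3 fits, and RAD51C (0.63) as deposited only. In mismatch repair 3, 2 and 1 of 8 were higher, among them MSH6 (0.71), of the mismatch sensor, and the exonuclease EXO1 (0.85). Of 21 DNA methylation and Polycomb genes 3, 1 and 1 were higher, UHRF1 on both scales (0.83), and 0, 1 and 0 lower.

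Kinetochore, condensin and cohesin genes made 16, 9 and 6 calls upward of 39 and kinesins 5, 2 and 3 of 20, beside 4.97%, 2.17% and 1.3% of all genes. G2/M and mitosis genes made 8, 5 and 1 of 52, and the E2F family, G1 cyclins and RB family 7, 4 and 2 of 26 with 0, 1 and 0 downward. The difference between these lists was not tested. CCNB1, the cyclin of mitotic entry, read 229, 239 and 247 TPM with SE and 166, 165 and 169 with HTyr, separate but under the fold threshold (log2 difference 0.52, adjusted p = 2.71e-05), against 49.1, 53.6 and 53.4 untreated. TOP2A, the topoisomerase of condensing chromosomes, differed by 0.76, the spindle checkpoint kinase TTK by 0.79, KIF20B by 1.08, SMC2 of condensin by 0.93 and the kinetochore proteins CENPU and CENPF by 0.81 and 0.70, CENPF not by median ratio. CDK6, a G1 kinase, read 22.4, 23.1 and 21.5 TPM with SE, 12.1, 10.9 and 13.8 with HTyr and 15.6, 14.3 and 14.7 untreated (0.84), E2F2 differed by 0.89 and E2F1 by 0.62, the last as deposited only. Of 12 tubulins 1, 0 and 0 were higher, TUBA1B (0.62) as deposited. Of 16 histones 2, 2 and 1 were lower and none was higher. H2AC6, a core histone gene, differed by -0.63. Poly(A) capture misses most replication-dependent histone mRNA, and 6 of the listed histones were below the filter.

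Of 27 cholesterol synthesis genes and SREBP2 targets 12, 8 and 7 were higher with SE (4.97%, 2.17% and 1.3% of all genes) and none was lower, with a median of 0.57 beside 0.13. Against untreated cells, with shared untreated libraries, the median of the same genes was 0.54 with SE, which raised 12 and lowered 1. With HTyr it was 0.04, and 3 were raised and 1 lowered. Of all genes SE raised 17% and lowered 11%, and HTyr raised 7.8% and lowered 8.45%. ACAT2, the cytosolic thiolase at the entry (ENSG00000120437, chromosome 6, 159762045 to 159779112), read 50.5, 53.2 and 53.2 TPM with SE, 22.0, 19.3 and 22.5 with HTyr and 14.4, 15.7 and 17.2 untreated (log2 difference 1.28, standard error 0.081, adjusted p = 3.44e-07, limma). The SREBP2 letters TCACNCCAC lay in 1 of 20 members with a RefSeq promoter (5.0%) and in 1.05% of 10543 promoters. They lay in 0 of the 5 members with a promoter that were called on both scales. IDI1, the isomerase of the isoprene unit, read 58.8, 61.4 and 57.4 TPM with SE, 26.6, 24.8 and 30.1 with HTyr and 20.7, 24.3 and 23.8 untreated (log2 difference 1.11, standard error 0.086, adjusted p = 1.49e-06). FDFT1, squalene synthase, differed by 0.83 and was called in all 3 fits. In fatty acid synthesis 4, 2 and 2 of 21 were higher: ACSL3, which activates fatty acids, read 78.4, 77.9 and 76.5 TPM with SE, 45.8, 42.1 and 48.1 with HTyr and 42.5, 45.4 and 48.1 untreated (log2 difference 0.77, standard error 0.063, adjusted p = 2.34e-06), and the desaturase SCD differed by 0.65 as deposited only, while ACLY (0.53) and ACACA (0.57) missed the fold threshold. Fatty acid oxidation, peroxisome and PPAR genes made 3, 0 and 0 calls upward and 0, 3 and 0 downward of 36, so the direction of its calls turned with the scale.

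Several keratins, a laminin chain and an integrin were lower with SE. Of 10 keratins tested 4, 7 and 5 were lower with SE (2.38%, 3.77% and 1.95% of all genes) and none was higher (median -0.50 beside 0.13). KRT7 (ENSG00000135480, chromosome 12, 52232520 to 52252186) read 18.4, 14.7 and 18.01 TPM with SE, 73.2, 68.8 and 69.6 with HTyr and 139, 156 and 139 untreated (log2 difference -2.03, standard error 0.12, adjusted p = 1.83e-07, limma). KRT80 read 3.55, 3.81 and 3.93 TPM with SE and 11.5, 13.0 and 12.2 with HTyr (log2 difference -1.58, standard error 0.089, adjusted p = 1.34e-07), both far under its untreated mean of 65.6 TPM. The abundant simple-epithelium keratins were closer: KRT18 had 549 ± 31.97 TPM with SE and 783 ± 45.9 with HTyr (-0.51) and KRT19 545 ± 22.1 against 770.3 ± 60.8 (-0.50), lower by median ratio only. The laminin chain LAMB3 and the laminin-binding integrin ITGA3 belong to the list of junctions, integrins and laminins, in which 7, 10 and 8 of 39 were lower and 1, 0 and 0 higher. LAMB3 read 14.2, 11.4 and 14 TPM with SE against 34.4, 38.6 and 31.4 with HTyr (log2 difference -1.37, standard error 0.095, adjusted p = 7.89e-07) and ITGA3 102, 81.9 and 99.0 against 249, 219 and 247 (log2 difference -1.33, standard error 0.10, adjusted p = 1.63e-06). The groups did not overlap for either gene. The tight junction gene CLDN7 differed by -0.64, and the desmosomal cadherin DSC2 was the 1 higher member (0.63, as deposited only).

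Among secreted defense proteins 4, 5 and 3 of 9 were lower (2.38%, 3.77% and 1.95% of all genes) and none was higher, and 13 more listed genes were below the filter. SLPI read 2.42, 2.78 and 3.14 TPM with SE, 9.51, 10.3 and 11.6 with HTyr and 17.0, 16.8 and 13.8 untreated (log2 difference -1.74, standard error 0.14, adjusted p = 2.33e-06, limma), and the antiprotease SERPINA3 0.630, 0.280 and 0.580 against 2.58, 2.31 and 2.13 TPM (log2 difference -1.53, standard error 0.17, adjusted p = 2.74e-05), a low transcript. In the actin and SRF list 3, 4 and 4 of 36 were lower, with FHL2, a LIM-domain coregulator, at 67.4 ± 10.4 TPM with SE and 127 ± 2.04 with HTyr (-0.92) and FHL1 (-0.75) among them, and EZR, which ties actin to the membrane, was lower by median ratio only (-0.55). Invasion genes split, 5, 5 and 5 lower and 2, 2 and 2 higher of 22. AXL, a receptor tyrosine kinase, read 17.6, 15.9 and 16.3 TPM with SE, 39.6, 40.3 and 36.3 with HTyr and 76.8, 74.8 and 79.5 untreated (log2 difference -1.197, standard error 0.061, adjusted p = 1.10e-07). PLAU, the urokinase, read 36.8, 31.3 and 39.1 TPM with SE, 107, 112 and 103 with HTyr and 235, 252 and 228 untreated (log2 difference -1.58, standard error 0.089, adjusted p = 1.34e-07). For both, SE was the lowest range and untreated cells the highest, with HTyr between. Its receptor PLAUR (-0.90) was lower too. CEMIP, which degrades hyaluronan, went up with SPP1, at 13.8, 12.8 and 15.8 TPM with SE, 5.34, 7.45 and 6.53 with HTyr and 1.8, 1.8 and 1.95 untreated (log2 difference 1.08, standard error 0.14, adjusted p = 1.10e-04). Of the intestinal identity genes 8 were expressed enough to be tested, and none of them was called, while 24 were below the filter.

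In the EGFR, ERK feedback, AP-1 and KLF lists most calls were downward, and the last 3 lists made 2 calls each as deposited. Of all genes 2.38% were lower as deposited and 3.77% by median ratio, and 4.97% and 2.17% were higher. Of 14 EGFR family genes 4, 4 and 4 were lower and 1, 1 and 1 higher: the ligands AREG (339 ± 15.3 TPM with SE, 605 ± 19.0 with HTyr, -0.83), HBEGF (-0.76) and TGFA (-0.60) and the feedback inhibitor ERRFI1 (-0.65) were lower, and the ligand NRG4 was higher from a low level, 2.38, 1.92 and 2.28 TPM with SE against 0.850, 0.550 and 0.240 with HTyr (log2 difference 1.40, standard error 0.27, adjusted p = 0.00173, limma). Of 23 ERK feedback genes 2, 4 and 3 were lower. DUSP5, a nuclear phosphatase for ERK, read 38.6, 44.3 and 45.3 TPM with SE, 134, 122.6 and 103 with HTyr and 642, 528 and 583 untreated (log2 difference -1.47, standard error 0.094, adjusted p = 3.46e-07). Its steepest step was from untreated cells to HTyr, with a further drop to SE. EPHA2, an ephrin receptor, read 39.7, 44.2 and 41.7 against 83.2, 93.2 and 78.7 with HTyr (log2 difference -1.01, standard error 0.062, adjusted p = 2.25e-07). Of 20 RAS, RAF, MEK and ERK genes themselves 0, 1 and 0 were lower, RRAS by median ratio (-0.55). AP-1 genes made 2, 3 and 2 calls downward of 14, as deposited JUN (4.66, 4.25 and 5.06 TPM with SE, 8.62, 10.9 and 9.58 with HTyr, -0.98) and FOSL1 (-0.86), and KLF factors 2, 4 and 3 of 13, as deposited KLF4 at 8.42, 9.80 and 9.23 against 18.3, 19.0 and 17.7 TPM (log2 difference -0.97, standard error 0.077, adjusted p = 1.93e-06) and KLF2 at 3.16, 3.42 and 2.89 against 7.5, 8.46 and 6.11 (-1.09), where HTyr stood above the untreated mean of 3.38 TPM.

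In NF-kB signaling 5, 7 and 4 of 27 genes were lower (2.38%, 3.77% and 1.95% of all genes) and none was higher, PLAU, PLAUR and SDC4, a syndecan (-0.77), among the lower as deposited, and IER3 lower by median ratio only (-0.53). Of 14 chemokines and cytokines tested 1, 2 and 1 were lower, as deposited CXCL3 at 0.270, 0.460 and 0.280 TPM with SE against 1.25, 1.04 and 1.86 with HTyr (log2 difference -1.15, standard error 0.22, adjusted p = 0.00184, limma), and 19 more were below the filter. JAK, STAT and SOCS genes made 1, 0 and 0 calls upward of 19, PIAS1 (0.69) as deposited. Interferon and MHC class I genes made 1, 1 and 0 upward and 1, 3 and 1 downward of 37, OAS3 (0.75) and IRF9 (-0.88) as deposited. Immune checkpoint ligands made 0, 1 and 0 downward of 13, PVR by median ratio (-0.45). In the WNT list 3, 2 and 2 of 20 were higher and none was lower: beside AXIN2, BMP4, a secreted morphogen, read 62.2, 65.2 and 71.4 TPM with SE against 34.8, 32.4 and 36.4 with HTyr (log2 difference 0.93, standard error 0.068, adjusted p = 9.17e-07), while beta-catenin CTNNB1 (0.41) and TCF7L2 (0.56) were not called. TGF-beta genes made 1, 1 and 1 calls upward and 2, 4 and 1 downward of 24. YAP and TEAD targets made 2, 4 and 2 downward of 22, as deposited AXL and NT5E, which makes adenosine (52.9, 48.3 and 51.0 TPM with SE, 112, 105 and 109.7 with HTyr, -1.10), and the MYC network 2, 2 and 2 downward of 12, as deposited MYCL (-1.02) and MXD1 (-0.66). ARRDC4, an arrestin relative that glucose induces, was lower at 3.07, 3.21 and 3.12 TPM with SE against 6.40, 5.09 and 5.25 with HTyr (log2 difference -0.74, standard error 0.21, adjusted p = 0.0167), 1, 1 and 0 of 4 tested in its list, while TXNIP is listed at 0 in all 9 libraries.

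Translation genes were mixed by class. Cytosolic ribosomal protein genes held 21.5 ± 1.40% of all TPM with SE, 24.4 ± 0.908% with HTyr and 28.2 ± 1.22% untreated (SD, n = 3 each). The SE libraries lay between 19.99% and 22.7% and the HTyr libraries between 23.4% and 25.1%, without overlap, a difference of -2.83 percentage points (two-sided p = 0.1 by exact permutation of the 6 libraries, which can give no smaller p). Gene by gene 0, 1 and 0 of 79 were lower, and 79 of 79 lay below the median of all genes (list median -0.16). RPL12 read 4327, 4146 and 4310.1 TPM with SE and 5037, 5364 and 5412 with HTyr (log2 difference -0.31). Host genes of small nucleolar RNAs, noncoding transcripts whose introns carry those RNAs, made 6, 7 and 5 calls downward of 19 (2.38%, 3.77% and 1.95% of all genes) and none upward. GAS5 (ENSG00000234741, chromosome 1, 173858559 to 173868882) read 645, 803 and 767 TPM with SE, 1381, 1211 and 1343 with HTyr and 2623, 2057 and 2424 untreated (log2 difference -0.83, standard error 0.12, adjusted p = 1.86e-04, limma), ZFAS1 253, 323 and 316 against 567, 541 and 557 with HTyr (-0.91), SNHG32 127, 159 and 148 against 344, 329 and 309 (log2 difference -1.18, standard error 0.084, adjusted p = 8.23e-07), and EPB41L4A-AS1 differed by -1.0. For all 4 genes every SE library lay below every HTyr library. Ribosome biogenesis made 2, 1 and 1 calls of 48, upward, with UTP20 on both scales (0.92), and NCL, nucleolin, differed by 0.54 without a call. Translation factors made 1, 0 and 0 calls upward and 0, 1 and 1 downward of 44, as deposited EIF5B (0.63).

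For protein breakdown, 8, 3 and 2 of 37 proteasome genes were higher (4.97%, 2.17% and 1.3% of all genes) and none was lower, and 34 of 37 lay above the median of all genes (list median 0.42 beside 0.13). PSMD1, a scaffold of the regulatory particle, read 104.2, 112 and 109 TPM with SE, 56.0, 59.1 and 65.8 with HTyr and 41.8, 40.2 and 40.4 untreated (log2 difference 0.84, standard error 0.059, adjusted p = 8.11e-07, limma), and PSMA3 and PSMA4 of the core ring differed by 0.68 and 0.68, as deposited only. Autophagy and lysosome genes split into 2, 1 and 1 higher and 3, 3 and 3 lower of 46. MAP1LC3B, which coats autophagosomes, was lower at 47.1, 57.98 and 55.0 TPM with SE against 107, 109.8 and 106 with HTyr and 146, 148 and 159 untreated (log2 difference -1.01, standard error 0.076, adjusted p = 1.18e-06), and GLA, a lysosomal galactosidase, higher at 36.2, 43.2 and 43.7 against 25.0, 22.0 and 25.1 TPM (log2 difference 0.76, standard error 0.096, adjusted p = 8.23e-05).

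Mitochondrial genes made few calls between SE and HTyr. The study followed some of their proteins, in each treatment against untreated cells, which is another comparison. Of 37 nuclear complex I subunits 2, 0 and 0 were higher, and of 39 genes of complexes II to V 2, 1 and 0. Of 78 mitochondrial ribosome proteins 3, 0 and 0 were higher, of 31 import and outer membrane genes 1, 1 and 1, and of 30 biogenesis and dynamics genes 1, 0 and 0. No member of these 5 lists was lower. Their medians of 0.17, 0.19, 0.25, 0.23 and 0.21 stood beside 0.13 for all genes, and these counts beside 4.97% and 2.17%. Against untreated cells, as deposited and in the same order of lists, SE raised 11, 8, 28, 7 and 3 members and lowered 0, 0, 0, 1 and 3. HTyr raised 2, 2, 7, 2 and 1 and lowered 0, 0, 0, 1 and 2. Of all genes SE raised 17% and lowered 11%, and HTyr raised 7.8% and lowered 8.45%. ATP5MC1, a ring subunit of ATP synthase, was called on both scales (579, 594 and 549 TPM with SE, 319, 334 and 369 with HTyr, log2 difference 0.75, standard error 0.071, adjusted p = 8.44e-06, limma), as was TIMM21, of the inner membrane translocase (0.78). TFAM, which packs and transcribes mitochondrial DNA, read 51.8, 54.1 and 53.1 TPM with SE, 30.4, 31.4 and 40.5 with HTyr and 27.0, 25.6 and 30.4 untreated and was called as deposited only (log2 difference 0.64, standard error 0.10, adjusted p = 3.79e-04). The fusion proteins MFN1 and MFN2 differed by 0.32 and 0.06, the fission factor MFF by 0.25, the import receptor TOMM20 by -0.13, and the regulators PPARG and FOXJ3 by -0.17 and 0.17, none of them called. MFF read 62.3, 59.3 and 58.1 TPM with SE, 49.0, 49.0 and 52.7 with HTyr and 58.5, 59.4 and 63.1 untreated. PPARGC1A is listed at 0 in all 9 libraries.

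Transcripts of the mitochondrial genome held 18.6 ± 2.33% of TPM with SE and 17.9 ± 0.961% with HTyr (SD, n = 3 each), which overlapped (two-sided p = 0.9 by exact permutation). Of 15 such genes 1, 0 and 0 were called, upward and as deposited MT-ND6, encoded on the other strand (0.67), and MT-CO1 had the opposite sign (-0.31, not called). The 20 most abundant genes held 23.2 ± 1.94% with SE and 24.1 ± 0.849% with HTyr (p = 0.6 by the same exact test). In the TCA cycle list 1, 0 and 0 were higher and 1, 1 and 1 lower of 35, the lower one on the deposited scale GOT1, the cytosolic aspartate aminotransferase, at 83.6, 93.0 and 98.7 TPM with SE against 153, 164 and 159 with HTyr (log2 difference -0.79, standard error 0.064, adjusted p = 2.05e-06, limma). Glycolysis and hypoxia genes made 2, 2 and 2 calls downward of 37 and none upward: NDRG1, a hypoxia and stress gene, read 42.9, 40.5 and 36.5 TPM with SE, 63.3, 71.1 and 71.3 with HTyr and 119, 141 and 122.9 untreated (log2 difference -0.77, standard error 0.11, adjusted p = 2.39e-04), while the enzymes TPI1 (0.46), GPI (0.47) and PKM (0.36) were not called.

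**Figure D4:**
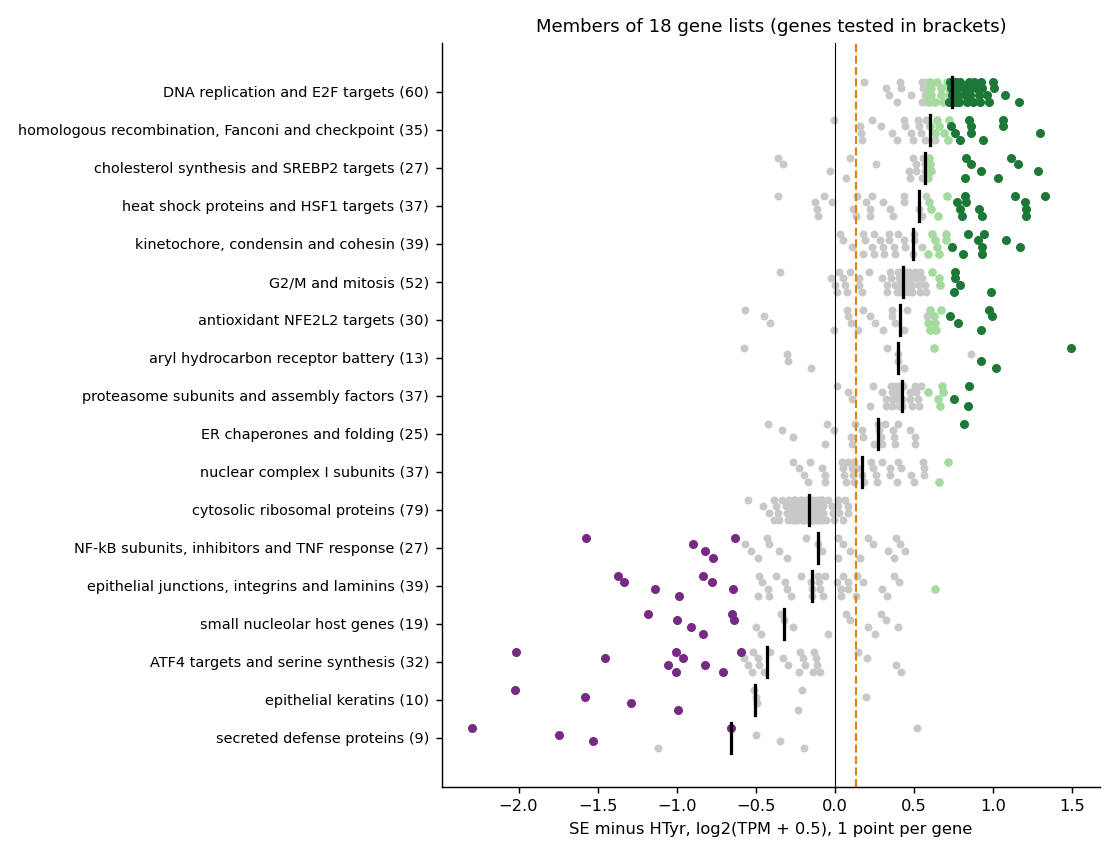
Log2 difference between SE and HTyr for the members of 18 gene lists, 1 point per gene. Dark green and purple points were called higher and lower with SE on both scales, light green points on the deposited scale alone, black bars are list medians, and the dashed line is the median of all genes, 0.13. Replication genes lead on the right with a median of 0.74, and secreted defense proteins and keratins trail on the left with -0.66 and -0.50.

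The lists were also read beside the untreated level, on the deposited scale. The 2 contrasts share the 3 untreated libraries, so they are given side by side and not correlated. Of all genes SE raised 17% and lowered 11%, and HTyr raised 7.8% and lowered 8.45%. The medians of all genes were 0.090 with SE and -0.037 with HTyr. The median of the replication list was 1.55 with SE and 0.78 with HTyr on the log2 scale, and 57 and 40 of 60 members were raised. The G2/M list had medians of 1.32 and 0.95, with 48 and 42 of 52 raised. For heat shock genes the medians were 0.75 and 0.16, with 20 of 37 raised and 1 lowered by SE, and 3 raised and 2 lowered by HTyr. For proteasome genes the medians were 0.79 and 0.34, with 30 and 3 of 37 raised. Keratins stood at -1.54 with SE and -0.82 with HTyr, 8 and 6 of 10 lowered, and SE raised 1. Secreted defense proteins stood at -0.88 and -0.13, 6 and 3 of 9 lowered. ATF4 targets had medians of -0.38 and -0.06, with 13 of 32 lowered and 2 raised by SE, and 4 lowered and 4 raised by HTyr. ER chaperones were the list of the figure in which HTyr lay farther from untreated cells than SE, with medians of -0.40 and -0.08.

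**Figure D5:**
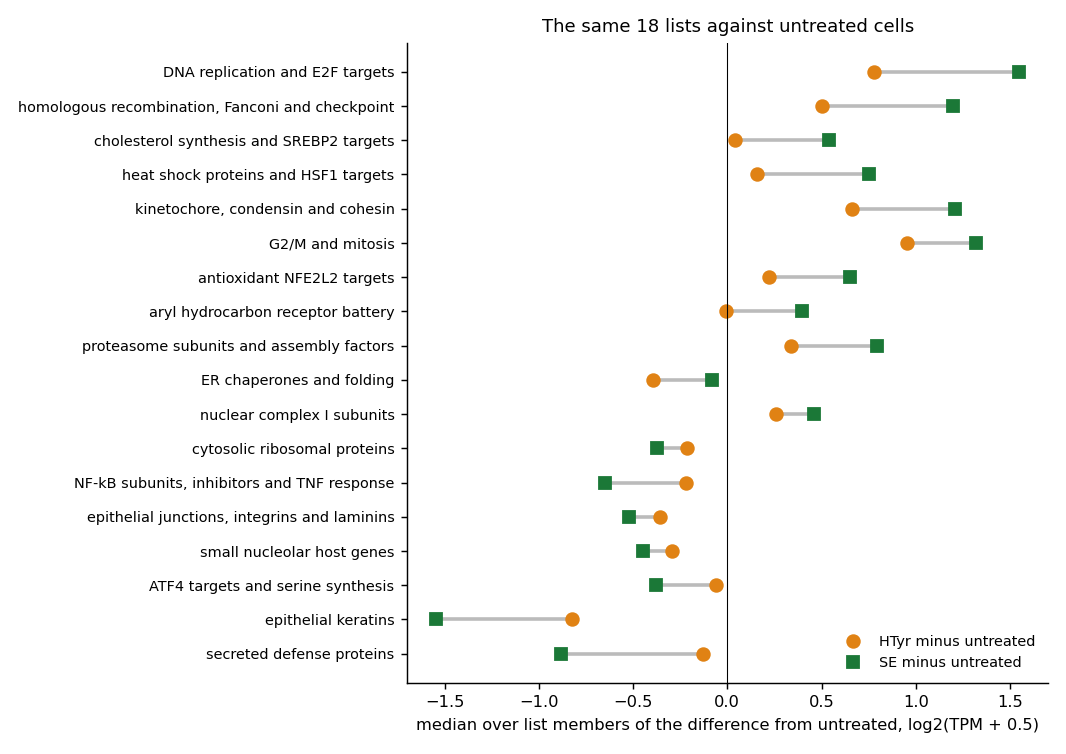
Median over the members of the same 18 lists of the log2 difference from untreated cells, with HTyr (orange circles) and with SE (green squares). The square lies farther from 0 than the circle in 17 of the 18 lists, the exception being ER chaperones, and the replication list spans from 0.78 to 1.55.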

How the data were processed

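RNA from HCT116 cells was sequenced after poly(A) capture with a stranded kit. According to the submitters' processing notes and the study's methods, the authors trimmed the reads, aligned them with STAR to GRCh38 and estimated abundances with RSEM, with no versions in the sources used here. The deposited table holds these TPM values, relative to each library's total, for 60664 Ensembl genes in 15 columns. 0 columns of values were left without a sample. Columns were mapped by name, those of the Sicily and Tuscany extracts by the region's initial and against the bracketed title codes. Each column equalled the supplementary table's column for its mapped sample within 0.005 TPM in all 1539 rows held and another column in at most 21 rows. TPM keep no depth, so no count test was run.

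Here, genes that reached 1 TPM in 3 or more libraries were tested on log2(TPM + 0.5), which understates the change of low genes, with limma 3.58.1 in R 4.3.3 over all 15 libraries with 5 groups and a mean-variance trend (10 residual and 3.42 prior degrees of freedom). P-values were adjusted over all 14899 genes by the Benjamini-Hochberg method, and a gene was called past 0.05 with a change of over 1.5-fold. Shares of a library were compared by exact permutation in Python with numpy 2.4.6. The scripts were tested on simulated data.

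Genes and the 67 lists were chosen with earlier results of these data known. Named were the 12 largest differences each way that were called on both scales without overlap and at 5 TPM or more, in each list the 4 members with the smallest adjusted p and up to 2 called members against its main direction, members of 5 lists by role, and the mitochondrial genes of the study's theme. ENSG00000259316, RMRP, TXNIP and the marker genes were named after their values were seen. Symbols and positions are those of GENCODE 44 on GRCh38, and promoters are RefSeq's for GRCh38.p14. The 3 same-numbered pairs of SE and HTyr libraries deviated from their group means with correlations of -0.17, 0.034 and -0.17, so the numbers were not taken to pair them. Alternatives changed the pseudocount, filter, scaling, libraries, model and threshold, and those that rescaled to protein coding genes or left out HTyr replicates 1 and 2 were chosen after seeing the data.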

Additional observations from a re-analysis of the deposited data

How the results depend on the processing

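The direction of the calls between SE and HTyr depends on the scaling. By median ratio 323 genes were higher and 561 lower, and after quantile normalization 349 were higher and 511 lower. Higher genes stayed the majority after rescaling to protein coding genes (525 higher, 424 lower). They also did without mitochondrially encoded genes (815 higher, 349 lower). With each library's trend on GC content and length removed, 720 genes were called and 263 were higher, or 714 and 262 together with the replicate block. A threshold of 1 on the log2 scale left 190 genes (75 higher, 115 lower), and limma's treat 74 (22 higher, 52 lower). Chosen after seeing the data were the rescaling to protein coding genes and the fits that leave out libraries rich in short RNA. Without HTyr replicates 1 and 2, 578 genes were called (367 higher, 211 lower), and by median ratio in addition 485 (194 higher). These leave fewer libraries in the comparison. Leaving out each of the 15 libraries in turn gave 874 to 1276 called genes (554 to 900 higher, 320 to 382 lower). The same step gave differences of -0.68 to 1.44 percentage points for the mitochondrial share, -3.43 to -2.06 for the ribosomal protein share and -1.94 to -0.175 for the 20 most abundant genes. The replicate block gave 1099 called genes (740 higher, 359 lower), and all 378 named genes kept their call. Against untreated cells, the threshold of 1 and treat left 1629 and 1623 genes for SE and 588 and 346 for HTyr, where leaving out libraries gave 3984 to 4182 and 2166 to 2467. Of the 378 named genes 317 kept their call by median ratio, 324 by quantile normalization and 315 without the GC and length trend. The fits without HTyr replicates 1 and 2 leave HTyr replicate 3 alone, so kept calls are not counted for them here. No named gene changed sign between the main fit and an alternative in which either fit called it. Sign changes of genes called in neither fit were not counted. The cause of these changes was not tested.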
